A study of Mus musculus with 9 samples.

Results

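The genes of sterol and fatty acid synthesis were followed in mouse bone marrow-derived macrophages (BMDMs) exposed to inflammatory stimuli with or without annexin A5 (AnxA5). They were chosen by name: 34 gene symbols of these pathways were matched to the 55335 genes of the expression table, and each was found once. They fall into 18 genes of the mevalonate and sterol steps, 6 genes that control the SREBP transcription factors and 10 genes of fatty acid synthesis and desaturation.

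The experiment held 3 groups of 3 RNA-seq libraries, all from wild-type (WT) cells. BMDMs, macrophages that grow out of bone marrow in the growth factor M-CSF, were taken from male C57BL/6 mice aged 4 to 6 weeks. The Control group received medium alone, the Model group received LPS (1 µg/mL) together with IFN-γ (30 ng/mL), and the M+AnxA5 group received both stimuli and recombinant AnxA5, each for 6 h. LPS is a bacterial ligand of TLR4, IFN-γ is a cytokine of lymphocytes and AnxA5 is a protein that binds phospholipids in the presence of calcium. The dose of AnxA5 in the sequenced cultures is not given in the sources used here. No source says whether the libraries of a group came from separate cultures or animals, and p-values therefore describe how far these libraries spread, which can be technical spread.

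Cells make cholesterol from acetyl-CoA, first along the mevalonate pathway to farnesyl diphosphate, then through squalene and lanosterol. Fatty acids are made from the same acetyl-CoA by carboxylation, chain building, elongation and desaturation. Genes of both branches are targets of the SREBP transcription factors, which are held in the endoplasmic reticulum by Scap and the Insig proteins when membrane cholesterol is plentiful. In macrophages, ligands of TLR4 and interferons are known to change both branches, and sterol intermediates and oxysterols of these pathways act on inflammatory and antiviral responses.

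Levels were deposited as FPKM, which count fragments per kilobase of transcript relative to all mapped fragments of a library, so that levels may be set side by side between genes. A rough estimate put depth between 25.9 and 36.1 M fragments per library (M for mega). By it, 1 fragment on a transcript of 1 kb was worth between 0.0277 and 0.0386 FPKM. The estimate rests on the smallest step between low values, which was sought only in a set range, and this range bounds the result. Only 32.6% to 35.4% of low values per library lay near multiples of that step, so depth is not established. Within a group, log2 values of 2 libraries correlated at 0.985 to 0.992, and no libraries were identical. The library numbered 2 had the highest share of summed FPKM in 2 ribosomal gene entries in each group. It was 7.47% in Control, 3.16% in Model and 3.59% in M+AnxA5, and is not a share of sequenced fragments. The results with AnxA5 are given with and without these 3 libraries. The 8 macrophage markers reached 1 FPKM in every library. Their summed level was 13159 to 14233 FPKM in Control, 7704 to 8597 in Model and 6885 to 7787 in M+AnxA5, and most of it was Lyz2 (11464 to 12608 FPKM in Control and 6045 to 6944 in Model). Lyz2, Cd68 and Csf1r were lower in all 3 Model libraries than in all 3 Control libraries, whereas Adgre1, Mertk, Fcgr1 and Cd14 were higher and Cd33 overlapped. Adgre1, for example, was at 311 to 350 FPKM in Control and 582 to 621 in Model. The adipocyte markers Cidec and Lep were at 0 in all 9 libraries, and the 4 adipocyte markers summed to at most 0.0485 FPKM. The 4 markers of fibroblasts and stroma summed to 91.7 to 153 FPKM in Control, 71.2 to 108 in Model and 60.7 to 108 in M+AnxA5. Neutrophil and precursor markers summed to 245 to 323 FPKM in Control, 276 to 362 in Model and 301 to 317 in M+AnxA5, and its 7 genes did not move together. Mpo and Elane were lower in all Model libraries than in all Control libraries (Mpo at 3.30 to 5.65 FPKM in Control and at most 0.165 in Model), Camp and S100a8 were higher (Camp at 5.10 to 5.97 FPKM in Control and 10.04 to 13.2 in Model), and Ngp, S100a9 and Ly6g overlapped. The part of these cells in the results was not tested. In bulk RNA, fewer cells of a type and less RNA per cell cannot be told apart.

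Differences were tested with limma on log2(FPKM + 1). The test covered the 11657 genes that reached 1 FPKM in 3 or more of the 9 libraries, and p-values were adjusted over those genes. A gene was called differentially expressed (DEG) when its fold change exceeded 1.2 and its adjusted p was below 0.05. This scale understates the change of genes at low levels. All 34 genes passed the filter on low values, but Tm7sf2, Dhcr7, Scd1, Elovl6 and Fads2 did so only through their Control libraries. Medians over the groups of genes include these genes.

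The first comparison, Model against Control, asks what LPS and IFN-γ did to these genes in 6 h. All 18 genes of the mevalonate and sterol steps were lower in Model, and in each of them the highest Model library lay below the lowest Control library. Each passed the test, and the remaining level ranged from 7.58% of Control for Dhcr7 to 53.7% for Pmvk. The 16 of them that also reached 1 FPKM outside Control were all called lower. Over all genes tested, 76.8% were called, 60.3% lower and 16.5% higher, and the groups did not overlap in 65.2% and 18.6%. A lower call was thus common among genes at large, and the size of the difference is given beside it: the median log2 fold change was -1.85 over the 18 genes and -0.45 over all genes tested.

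Idi1, the isomerase that interconverts the isoprene building blocks of the pathway (chr13:8885501-8892451, plus strand, GRCm38), was the gene of the sterol steps with the lowest log2 fold change. Its FPKM were 27.0, 28.7 and 28.6 in Control and 3.49, 3.92 and 3.09 in Model. The level left in Model was 12.5% of Control, with a log2 fold change of -2.70 ± 0.07 (SE, adjusted p = 1.5e-09). Cyp51, the demethylase that acts on lanosterol (chr5:4081145-4104746, minus strand), had 34.5, 33.9 and 36.3 FPKM in Control and 4.04, 4.49 and 5.16 in Model. That was a log2 fold change of -2.70 ± 0.07 (adjusted p = 2.6e-09). At the other end stood Pmvk, the kinase that acts on phosphomevalonate (chr3:89454541-89469013, plus strand), with 8.25, 7.33 and 7.88 FPKM in Control. In Model it had 4.25, 4.25 and 4.11 FPKM, a log2 fold change of -0.76 ± 0.07 (adjusted p = 8.5e-06). Ebp, a sterol isomerase of the endoplasmic reticulum (chrX:8185329-8193512, minus strand), had 16.0, 16.9 and 16.8 FPKM in Control and 7.62, 7.15 and 7.04 in Model. The log2 fold change of Ebp was -1.09 ± 0.05 (adjusted p = 5.0e-08). The Control and Model libraries of these 4 genes lay far apart relative to their spread.

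Along the pathway, the early genes kept between 12.5% and 53.7% of Control. Acat2, which joins acetyl-CoA units, was left at 18.4%, Hmgcs1, which makes HMG-CoA, at 24.5%, and the mevalonate kinase Mvk at 27.8%. Mvd, the decarboxylase that yields isopentenyl diphosphate, was left at 20.2% and the farnesyl diphosphate synthase Fdps at 25.6%. In the steps around squalene, the squalene synthase Fdft1 was left at 20.6%, the epoxidase Sqle at 14.7% and the cyclase Lss, which forms lanosterol, at 23.9%. The genes that turn lanosterol into cholesterol ranged from 7.58% to 43.8%. Msmo1, which oxidises the methyl groups on the sterol ring, kept 17.99%, the dehydrogenase Nsdhl 32.8%, the ketoreductase Hsd17b7 25.9% and the reductase Tm7sf2 24.3%. Sc5d, which desaturates the ring, kept 14.7%. Dhcr7, the last enzyme of the Kandutsch-Russell branch of cholesterol synthesis, had 10.4, 8.75 and 10.03 FPKM in Control and 0.782, 0.678 and 0.751 in Model and reached 1 FPKM in no library outside Control.

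**Figure D1:**
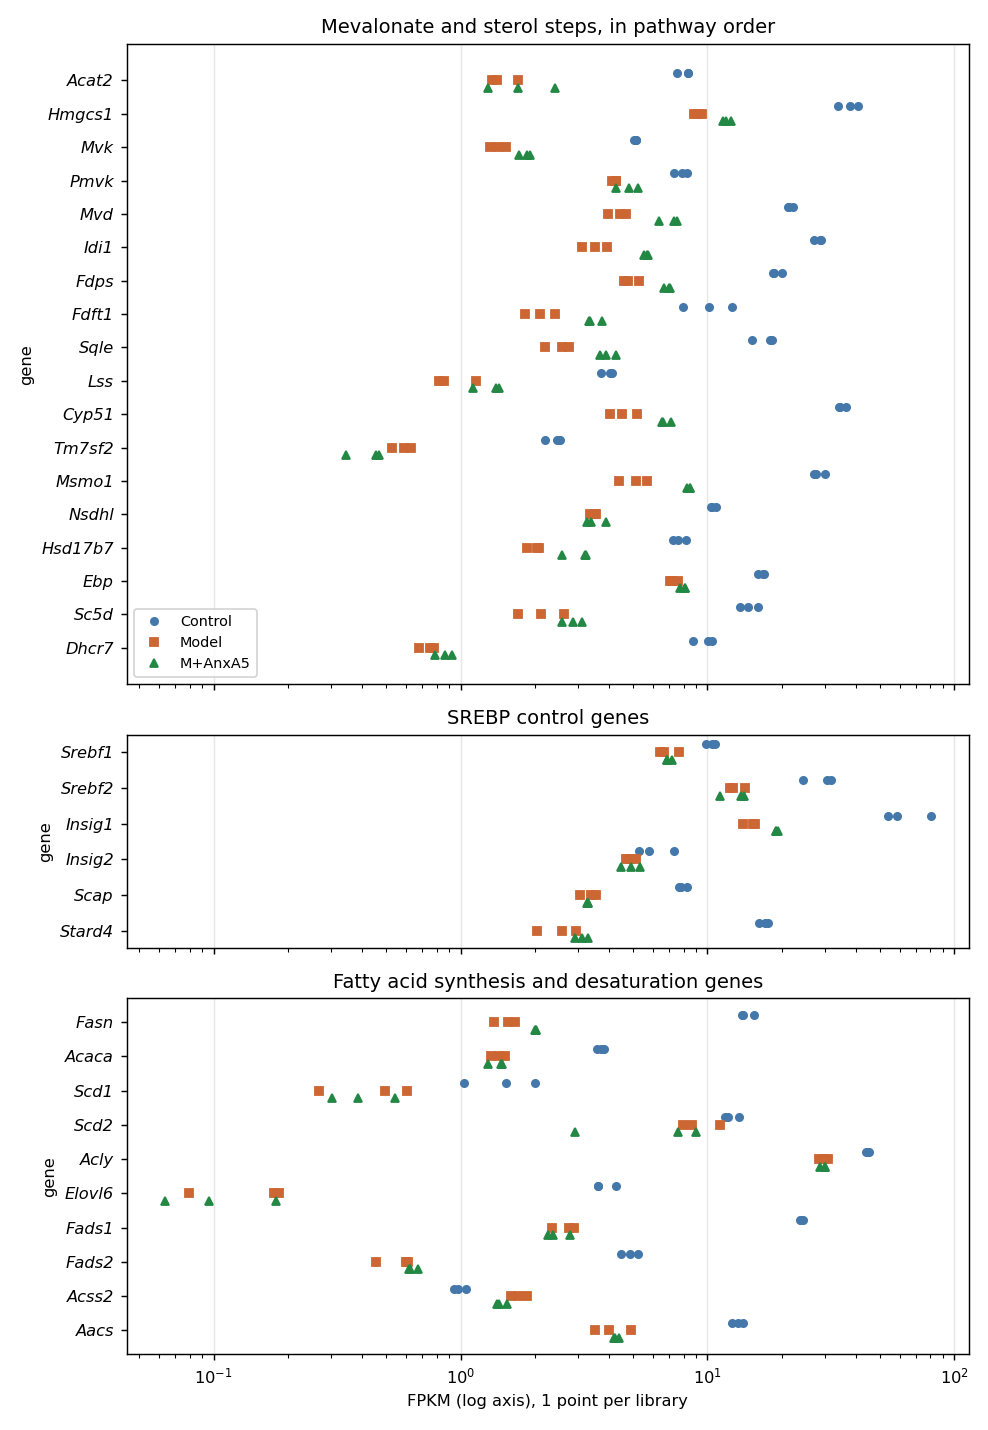
Level of each of the 34 genes in every library, in FPKM on a log axis, with 1 point per library (circles Control, squares Model, triangles M+AnxA5) and the sterol genes in pathway order. Of the 34 genes, 33 lay lower in all 3 Model libraries than in all 3 Control libraries, and Acss2 lay higher. Over all genes tested, 65.2% lay lower and 18.6% higher in this way. The 33 include Tm7sf2, Dhcr7, Scd1, Elovl6 and Fads2, which passed the filter on low values only through Control.

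The promoters of these genes were read for the boxes that SREBPs and their partner factors are known to bind, since the genes moved together. RefSeq windows of GRCm38.p6 from 250 bases before to 50 bases after a start were at hand for 27 of the 34 genes, in 35 windows, and not for Fdps, Fdft1, Sqle, Stard4, Scd1, Scd2 and Fads1. Searched on both strands, the box CCAAT of the factor NF-Y was found in 14 of 15 sterol genes (93.3%, Acat2 being the gene without it), in 4 of 5 SREBP control genes (80%) and in 3 of 7 fatty acid genes (42.9%). It was found in 41.1% of all 27025 genes with a window and in 42.8% of those among the genes tested. The 5 SREBP control genes have 10 windows, and a gene with more windows has more chances to hold the box. Counted by window, the box was in 77.8% of sterol windows, 50% of SREBP control windows and 42.9% of fatty acid windows. The share over all windows was 37.4%. The Sp1 box GGGCGG was found in 22 of the 27 genes (81.5%) and in 69.5% of the genes tested. By group it was in 14 of 15 sterol genes (93.3%, the same share as NF-Y), 5 of 5 SREBP control genes and 3 of 7 fatty acid genes. The core of the sterol regulatory element, TCACNCCAC, was found in Hmgcs1 alone (3.70% of the 27 genes, against 1.44% of all genes). A match is a run of letters and not a measured binding site, and these letters say nothing of sites of other spelling or outside the window.

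The 5 stretches printed here end before the annotated first exon. They show the spacing of the boxes in Hmgcs1, Mvd and Hsd17b7, which were called with AnxA5 below, and in Mvk and Fasn, which were not. All 5 genes were higher in every M+AnxA5 library than in every Model library, as were 10.6% of all genes tested. Hmgcs1, Mvd and Hsd17b7 were chosen for their call, so for these genes the separation follows largely from the choice. A difference in response between the 5 genes was not tested. Idi1, Cyp51 and Msmo1 were also called, but their boxes lie past the annotated start of the gene. Other promoters with as many boxes, such as that of Nsdhl, are not shown. Capitals mark the NF-Y box, written CCAAT or, on the other strand, ATTGG, and in Hmgcs1 also the sterol regulatory element core, the run TCACCCCAC.
Hmgcs1, chr13:119690101-119690325, plus strand: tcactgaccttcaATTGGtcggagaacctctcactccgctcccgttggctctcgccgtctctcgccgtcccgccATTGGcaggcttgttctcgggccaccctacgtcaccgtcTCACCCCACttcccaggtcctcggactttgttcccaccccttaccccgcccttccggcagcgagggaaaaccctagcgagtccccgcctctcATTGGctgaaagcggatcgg
Mvd, chr8:122443430-122443497, minus strand: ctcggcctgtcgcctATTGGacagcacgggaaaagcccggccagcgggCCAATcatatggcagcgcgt
Hsd17b7, chr1:169969259-169969385, minus strand: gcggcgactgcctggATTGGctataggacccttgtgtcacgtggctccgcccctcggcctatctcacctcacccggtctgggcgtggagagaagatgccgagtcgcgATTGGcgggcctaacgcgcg
Mvk, chr5:114444081-114444268, plus strand: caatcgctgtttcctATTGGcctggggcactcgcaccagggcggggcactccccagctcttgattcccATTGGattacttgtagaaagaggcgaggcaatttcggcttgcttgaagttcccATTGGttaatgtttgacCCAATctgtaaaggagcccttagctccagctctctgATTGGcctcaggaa
Fasn, chr11:120824587-120824652, minus strand: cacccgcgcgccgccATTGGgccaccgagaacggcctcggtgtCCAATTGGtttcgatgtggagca
The Mvk stretch holds 5 NF-Y boxes, the Hmgcs1 stretch 3 and the Fasn stretch 3, of which the last 2 overlap in the run CCAATTGG. Mvd and Hsd17b7 hold 2 each in the stretch shown.

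**Figure D2:**
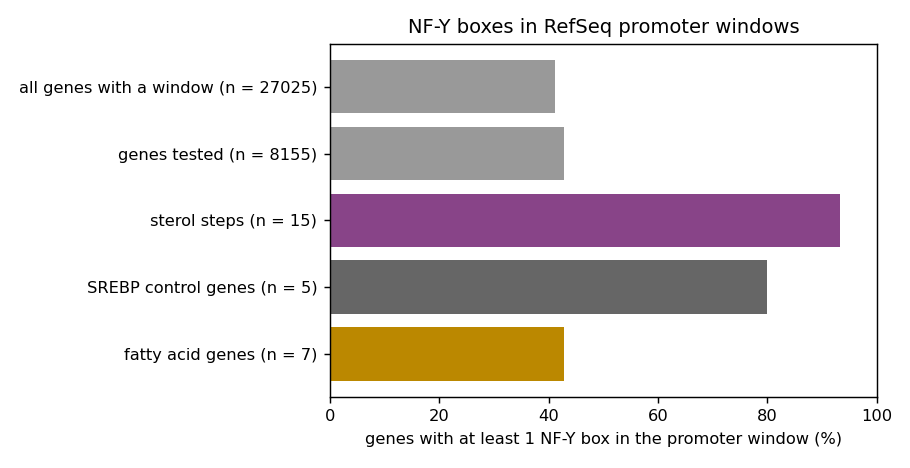
Share of genes with at least 1 NF-Y box (CCAAT, both strands) in the RefSeq promoter window, in percent, for all genes with a window, the genes tested and the 3 groups of genes. The bars stand at 41.1% for all genes, 93.3% for the sterol steps, 80% for the SREBP control genes and 42.9% for the fatty acid genes. A gene with several windows counts if any of them holds the box. By window, the SREBP control genes stood at 50% and all windows at 37.4%.

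The 6 SREBP control genes were less alike. Of these, 5 were called lower in Model, with a median log2 fold change of -1.06 over the 6 genes. Among all genes tested, 60.3% were called lower and the median was -0.45. With so few genes, the count of calls is no result about this group. Stard4, a carrier of cholesterol inside the cell, had 17.5, 16.1 and 17.1 FPKM in Control and 2.03, 2.58 and 2.93 in Model. It was left at 14.9% of Control with a log2 fold change of -2.36 ± 0.09 (SE, adjusted p = 2.6e-08). Insig1, which retains SREBPs in the endoplasmic reticulum and is itself a target of SREBP, had 80.3, 54.0 and 58.3 FPKM in Control and 13.97, 15.5 and 15.3 in Model. Its log2 fold change was -2.01 ± 0.13 (adjusted p = 5.6e-07). Control replicate 1 was the highest of its group for Insig1, yet all Control libraries lay above all Model libraries. Srebf2, which encodes the SREBP that mainly drives sterol genes, kept 45.4% of Control, and Scap, the escort protein of SREBPs, kept 41.7%. Srebf1, which encodes the SREBP isoforms that mainly drive fatty acid genes, changed less, with 10.4, 9.83 and 10.7 FPKM in Control and 6.43, 6.69 and 7.65 in Model. Its log2 fold change was -0.52 ± 0.06 (adjusted p = 6.0e-05), and the call was lost with quantile normalization. Insig2, the second Insig protein, had 5.27, 5.78 and 7.30 FPKM in Control and 4.87, 4.68 and 5.14 in Model. Its log2 fold change of -0.26 ± 0.10 (adjusted p = 0.039) stayed under the fold threshold and turned to 0.14 with quantile normalization. It was called without Control replicate 1 (-0.35, adjusted p = 0.012) and, with a fold just past the threshold, at pseudocounts of 0.1 (-0.30) and 0.5 (-0.28).

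Among the 10 genes of fatty acid synthesis and desaturation, 8 were called lower in Model, 1 was called higher and 1 was not called. Of the 7 that reached 1 FPKM outside Control, 5 were called lower and 1 higher. The shares over all genes tested were 60.3% and 16.5%, so close that these counts are no result about the fatty acid genes. The median log2 fold change was -1.22 over the 10 genes and -0.45 over all genes tested. The 10 genes include 3 that passed the filter only through Control. Fads1, the desaturase that makes arachidonic acid (chr19:10182888-10196877, plus strand), had 23.8, 23.7 and 24.5 FPKM in Control and 2.34, 2.87 and 2.75 in Model. It was left at 11.1% of Control, a log2 fold change of -2.78 ± 0.07 (SE, adjusted p = 2.4e-09). Fasn, the synthase that builds palmitate (chr11:120805846-120824547, minus strand), had 13.9, 15.4 and 13.8 FPKM in Control. In Model it had 1.37, 1.67 and 1.56 FPKM, a log2 fold change of -2.60 ± 0.06 (adjusted p = 1.4e-09). Fasn was left at 10.7% of Control, and Fads2, the desaturase that acts before Fads1, kept 11.5%.

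The remaining fatty acid genes ranged widely. Elovl6, which extends palmitate to stearate, was at 3.59, 4.26 and 3.59 FPKM in Control and at 0.0795, 0.175 and 0.184 in Model, or 3.83% of Control. Aacs, which activates acetoacetate for lipid synthesis, kept 31.1%, and Acaca, the carboxylase that makes malonyl-CoA, kept 38.6%. Acly, which cleaves citrate to acetyl-CoA, was the most abundant gene of the group and changed less, with 43.7, 45.2 and 44.6 FPKM in Control and 29.8, 28.4 and 30.8 in Model. Scd1, a desaturase that makes oleate, was low throughout, at 1.52, 2.00 and 1.03 FPKM in Control and 0.268, 0.605 and 0.496 in Model. Its call (log2 fold change of -0.78 ± 0.15, adjusted p = 0.00090) was lost with quantile normalization.

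Scd2, the related desaturase that was the more abundant in these cells, had 11.8, 12.1 and 13.4 FPKM in Control and 7.98, 8.67 and 11.3 in Model. The groups did not overlap, but the log2 fold change of -0.39 ± 0.30 (adjusted p = 0.25) did not pass the test. Without M+AnxA5 replicate 2, a library far below its group for Scd2 that enters the estimate of the spread, the log2 fold change was -0.39 and the adjusted p was 0.017. Acss2, which makes acetyl-CoA from acetate (chr2:155517948-155585724, plus strand), was the only one of the 34 genes called higher. It had 1.05, 0.972 and 0.940 FPKM in Control and 1.70, 1.5998 and 1.86 in Model, 174% of Control. This amounted to a log2 fold change of 0.45 ± 0.06 (adjusted p = 8.6e-05).

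In all, 31 of the 34 genes were called lower and 1 higher, with a median log2 fold change of -1.65. Of the 29 genes that reached 1 FPKM outside Control, 26 were called lower and 1 higher. Among all genes tested the calls were 7024 lower and 1925 higher, so that 21.5% of calls were higher. That share was 32.2% with upper-quartile scaling and 41.2% with quantile normalization, which moved the median log2 fold change of all genes to -0.24 and -0.10. The median of the sterol genes was then -1.64 and -1.50, and all 18 were called lower with both scalings.

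**Figure D3:**
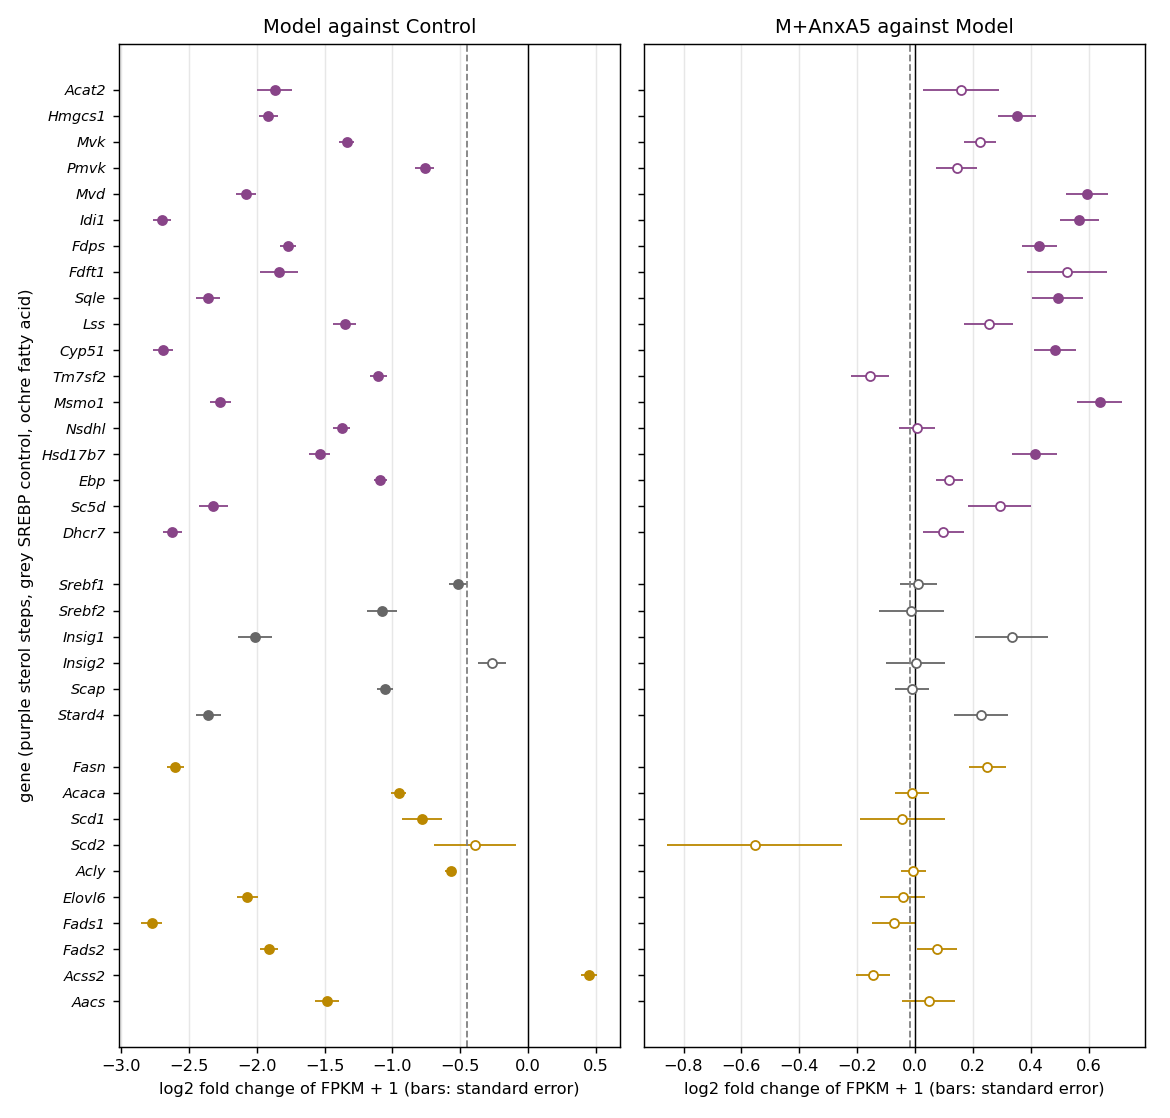
Log2 fold change on the log2(FPKM + 1) scale of each gene for Model against Control and for M+AnxA5 against Model, with bars for the standard error, filled points for DEGs and a dashed line at the median of all genes tested. The 8 filled points of the comparison with AnxA5 are all sterol genes above 0, between 0.35 and 0.64, and the 2 panels share the Model libraries.

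The second comparison, M+AnxA5 against Model, asks whether AnxA5 changed these genes in cells exposed to LPS and IFN-γ. It shares the Model libraries with the first, and chance in those libraries moves both. In all, 8 of the 18 sterol genes were called higher with AnxA5 (Hmgcs1, Mvd, Idi1, Fdps, Sqle, Cyp51, Msmo1 and Hsd17b7) and none lower. Over all genes tested, 2.76% were called, 1.95% higher and 0.815% lower. The median log2 fold change was 0.32 over the sterol genes and -0.02 over all genes tested, and 17 of the 18 sterol genes lay above 0. In 12 sterol genes all M+AnxA5 libraries were higher than all Model libraries and in 1 they were all lower, against 10.6% and 14.2% of all genes tested. The levels with AnxA5 remained at 19.4% to 39.0% of Control in the 8 genes, which is between Model and Control.

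Msmo1 (chr8:64718139-64733792, minus strand) had the highest log2 fold change with AnxA5. It rose from 4.38, 5.68 and 5.15 FPKM in Model to 8.50, 8.24 and 8.50 in M+AnxA5, and the log2 fold change was 0.64 ± 0.08 (SE, adjusted p = 0.0048). Mvd (chr8:122433601-122443422, minus strand) rose from 3.95, 4.40 and 4.69 FPKM to 7.34, 6.36 and 7.56, a log2 fold change of 0.60 ± 0.07 (adjusted p = 0.0048). Idi1 rose from 3.49, 3.92 and 3.09 FPKM to 5.69, 5.74 and 5.55, a log2 fold change of 0.57 ± 0.07 (adjusted p = 0.0046). The M+AnxA5 libraries of Msmo1 and Idi1 lay close together, whereas the Model libraries of both spread more.

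Sqle (chr15:59315077-59331192, plus strand) rose from 2.20, 2.76 and 2.58 FPKM in Model to 4.28, 3.66 and 3.87 in M+AnxA5. Its log2 fold change was 0.49 ± 0.09 (SE, adjusted p = 0.023). Cyp51 rose from 4.04, 4.49 and 5.16 FPKM to 7.11, 6.55 and 6.63, a log2 fold change of 0.48 ± 0.07 (adjusted p = 0.011). Sqle acts before and Cyp51 after the cyclisation to lanosterol, and Lss, which performs it, had a log2 fold change of 0.25 that was not called (adjusted p = 0.17). Fdps (chr3:89093588-89101959, minus strand) rose from 4.75, 5.29 and 4.58 FPKM to 6.68, 6.98 and 7.07, a log2 fold change of 0.43 ± 0.06 (adjusted p = 0.0077). Hsd17b7 (chr1:169949535-169969241, minus strand) rose from 1.85, 2.08 and 2.04 FPKM to 3.21, 2.58 and 3.20, a log2 fold change of 0.41 ± 0.08 (adjusted p = 0.027). M+AnxA5 replicate 2 was the lowest of its group for Hsd17b7 and still above every Model library. Hmgcs1 (chr13:119690379-119708260, plus strand) rose from 9.18, 8.82 and 9.47 FPKM to 11.9, 12.5 and 11.6, a log2 fold change of 0.35 ± 0.07 (adjusted p = 0.027).

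**Figure D4:**
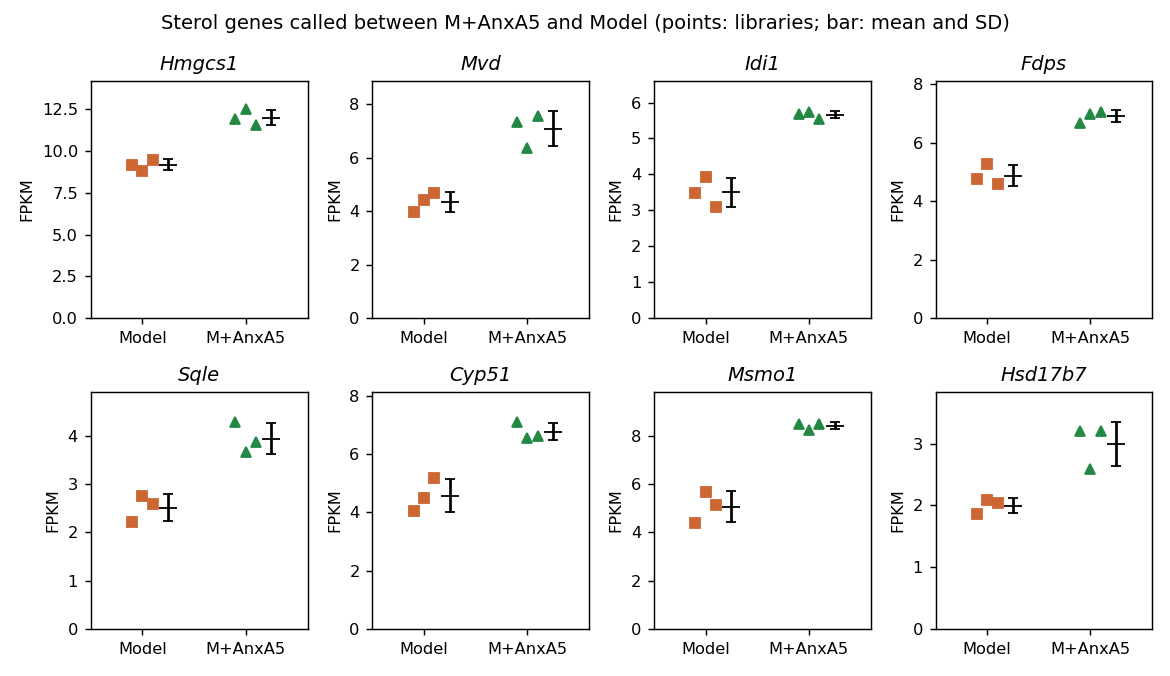
FPKM of the 8 sterol genes called higher with AnxA5, with 1 point per library (squares Model, triangles M+AnxA5) beside the mean and SD of 3 libraries, on axes that start at 0. In each gene the lowest M+AnxA5 library lies above the highest Model library, with Mvd at 6.36 against 4.69 FPKM as an example. This held in 10.6% of all genes tested, and the 8 genes shown were chosen by their call.

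The other 10 sterol genes were not called. Fdft1 had 1.82, 2.41 and 2.096 FPKM in Model and 3.74, 3.31 and 3.34 in M+AnxA5, with a log2 fold change of 0.53 ± 0.14 (SE, adjusted p = 0.091). Its Control libraries spread widely, at 10.1, 7.98 and 12.6 FPKM, and it was called when the fit held only the 6 libraries compared (adjusted p = 0.035) or left out Control replicate 2 (0.039) or Control replicate 3 (0.049). Mvk, Ebp and Dhcr7 were also higher in all 3 M+AnxA5 libraries, with log2 fold changes of 0.23, 0.12 and 0.10. Acat2, Pmvk, Sc5d and Lss overlapped between the groups and had log2 fold changes of 0.14 to 0.29. Nsdhl was at 0.01, with a 95% confidence interval of -0.13 to 0.15. Tm7sf2, a reductase whose step a second enzyme of the nuclear envelope can also perform, was the only sterol gene below 0. It had 0.529, 0.588 and 0.629 FPKM in Model and 0.344, 0.466 and 0.453 in M+AnxA5, a log2 fold change of -0.16 ± 0.06 (adjusted p = 0.27). At an unadjusted p under 0.05, 13 sterol genes were higher and 1, Tm7sf2, was lower, where 1985 of the 11657 genes tested had such a p in either direction.

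None of the 6 SREBP control genes was called with AnxA5 by limma, and 2 of them, Insig1 and Stard4, were higher at an unadjusted p under 0.05. Over all genes tested, 1985 of 11657 had such a p in either direction. With so few genes, 2 of 6 is no result about the SREBP control genes. Insig1 had 13.97, 15.5 and 15.3 FPKM in Model and 18.9, 19.0 and 19.4 in M+AnxA5, a log2 fold change of 0.33 ± 0.13 (SE, adjusted p = 0.22). The groups did not overlap, and Insig1 was called when the fit held only the 6 libraries compared (adjusted p = 0.028) or left out Control replicate 1, the high one (0.017). Stard4 had 2.03, 2.58 and 2.93 FPKM in Model and 3.27, 2.92 and 3.11 in M+AnxA5, so that 1 Model library lay above the lowest M+AnxA5 library. For Srebf1, Srebf2, Insig2 and Scap the log2 fold changes were between -0.01 and 0.01. The 95% confidence interval was -0.13 to 0.16 for Srebf1, -0.27 to 0.24 for Srebf2, -0.23 to 0.24 for Insig2 and -0.14 to 0.12 for Scap.

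None of the 10 fatty acid genes was called with AnxA5 by limma either, and at an unadjusted p under 0.05 Fasn was higher and Acss2 lower. These 2 of 10 stand beside 1985 of the 11657 genes tested, a share so close that it is no result about the fatty acid genes. Their median log2 fold change was -0.03. Fasn had 1.37, 1.67 and 1.56 FPKM in Model and 2.01 in each of the 3 M+AnxA5 libraries, a log2 fold change of 0.25 ± 0.06 (SE, adjusted p = 0.083). Acss2, which had risen with LPS and IFN-γ, had 1.70, 1.5998 and 1.86 FPKM in Model and 1.54, 1.41 and 1.43 in M+AnxA5. Its log2 fold change was -0.14 ± 0.06 (adjusted p = 0.26), again with no overlap. Fads1, at 2.34, 2.87 and 2.75 FPKM in Model and 2.78, 2.27 and 2.37 in M+AnxA5, had a log2 fold change of -0.07 with a 95% confidence interval of -0.24 to 0.10. Acly and Acaca were both at -0.01, with intervals of -0.10 to 0.09 and -0.14 to 0.12. Scd2 had 9.01, 2.92 and 7.58 FPKM in M+AnxA5, where replicate 2 was far below the others. The log2 fold change of Scd2 was -0.55 ± 0.30 (adjusted p = 0.40), and without that library it was -0.14 (adjusted p = 0.72).

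The calls with AnxA5 changed with the libraries in the fit. The 3 libraries numbered 2 had the highest ribosomal share of summed FPKM in their groups. Without them, none of the 34 genes was called by limma, and over all genes tested the number of DEGs fell to 11 from 322. In that fit 17 of the 18 sterol genes were still above 0. An unadjusted p under 0.05 was seen in 12 sterol genes and in 1228 of the 11657 genes tested. Mvd, Idi1, Fdps and Msmo1 each had an adjusted p of 0.094. Their log2 fold changes there were 0.67, 0.63, 0.47 and 0.72. When 1 library at a time was left out, these 4 genes were called in all 9 fits, and the number of sterol genes called ranged from 4 to 9. It was 4 without Model replicate 2 and 4 without M+AnxA5 replicate 3, since Cyp51 then missed the threshold (adjusted p = 0.053 and 0.051). Hmgcs1 and Sqle lost their call when any of the 6 Model and M+AnxA5 libraries was left out, with adjusted p up to 0.105 and 0.083. Hsd17b7 did so for 5 of these 6 libraries, the exception being M+AnxA5 replicate 2, with adjusted p up to 0.108.

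**Figure D5:**
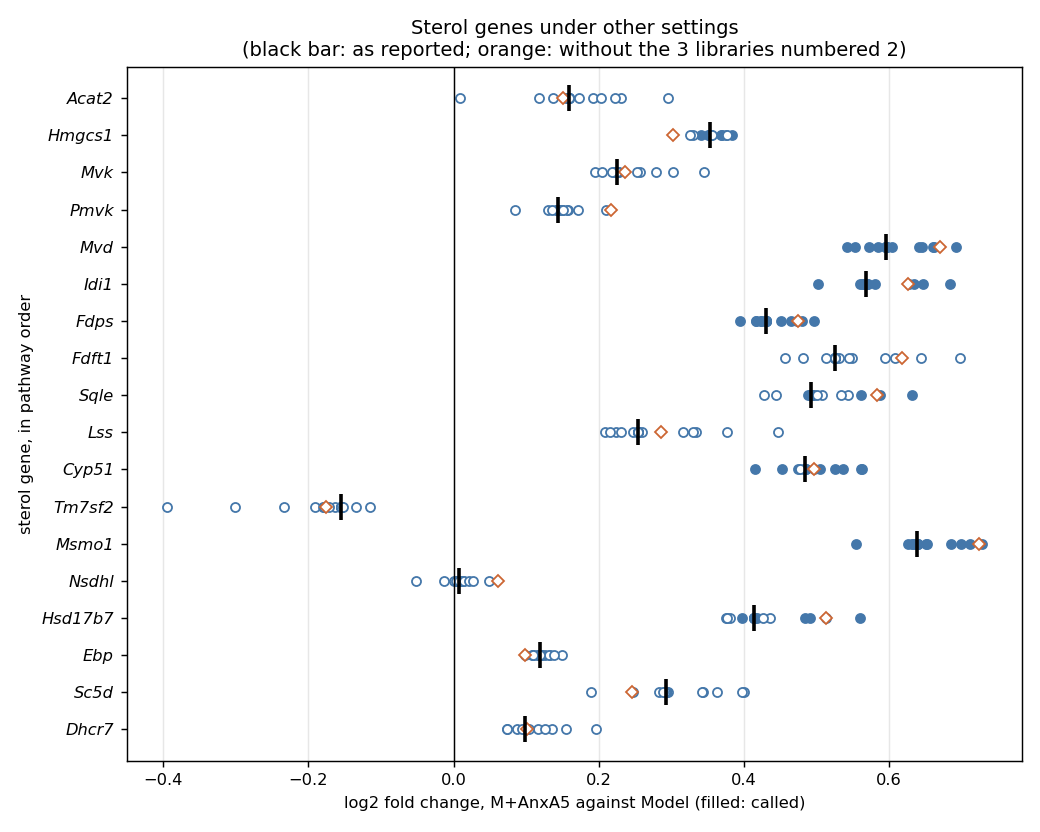
Log2 fold change of the 18 sterol genes for M+AnxA5 against Model under each setting tried other than the fold thresholds, with a black bar for the reported value, filled points where the gene was called and an open diamond for the fit without the 3 libraries numbered 2. Mvd, Idi1, Fdps and Msmo1 are filled in all settings but that one, and Tm7sf2 stays below 0 throughout.

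Set against Control, which is the third comparison and shares libraries with both others, the M+AnxA5 group remained low in nearly all of these genes. All 18 sterol genes, 5 of the 6 SREBP control genes and 9 of the 10 fatty acid genes were called lower in M+AnxA5, and Acss2 was called higher. Among the genes that reached 1 FPKM outside Control, 16 of 16 sterol genes, 5 of 6 SREBP control genes and 6 of 7 fatty acid genes were called lower. Over all genes tested, 77.5% were called, 61.1% lower and 16.4% higher. All M+AnxA5 libraries lay below all Control libraries in 32 of the 34 genes and above them in Acss2, and over all genes tested in 65.4% and 18.6%. The median log2 fold change was -1.42 for the sterol genes, -1.08 for the SREBP control genes, -1.20 for the fatty acid genes and -0.46 for all genes tested. In Msmo1 the level was 29.9% of Control in M+AnxA5 and 17.99% in Model, and in Mvd it was 32.9% and 20.2%. In Fads1 the corresponding levels were 10.3% and 11.1%, and in Srebf2 they were 45.1% and 45.4%. Insig2, which overlapped with Control in 1 library, was the gene not called, with a log2 fold change of -0.26. It was called without Control replicate 1 (-0.35) or without M+AnxA5 replicate 3 (-0.31), and at pseudocounts of 0.1 (-0.30) and 0.5 (-0.28). Scd2 was called lower here, with a log2 fold change of -0.95 ± 0.30 (SE, adjusted p = 0.017). Without M+AnxA5 replicate 2 it was -0.53 (adjusted p = 0.0072), and the call was lost with upper-quartile scaling (adjusted p = 0.057) and quantile normalization (adjusted p = 0.080). Summed over the 18 sterol genes, the libraries held 278 to 292 FPKM in Control, 57.6 to 62.0 in Model and 80.6 to 83.6 in M+AnxA5. Summed over the 10 fatty acid genes they held 121 to 126 FPKM in Control, 48.9 to 55.0 in Model and 45.4 to 50.7 in M+AnxA5, so that Model and M+AnxA5 overlapped.

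A further 42 genes of the same pathways were counted, which cover uptake, transport, storage and export of cholesterol, SREBP processing and fatty acid handling. Of these, 39 passed the filter on low values. Of the 39 tested, 24 were called lower and 9 higher in Model against Control, with a median log2 fold change of -0.48. Both lie close to all genes tested, of which 60.3% were called lower with a median of -0.45, and are no result about this list. Ch25h, which makes an oxysterol and is known as an interferon-induced gene, was higher, with a log2 fold change of 5.92.

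With AnxA5, 3 of the 39 genes, Npc1 and Soat1 among them, were called higher than in Model and none lower. The shares over all genes tested were 1.95% higher and 0.815% lower. Npc1, which moves cholesterol out of lysosomes, rose from 12.4, 12.7 and 13.0 FPKM to 15.6, 15.8 and 16.2, a log2 fold change of 0.30 ± 0.05 (SE, adjusted p = 0.013). Soat1, which esterifies cholesterol for storage, rose from 27.1, 26.3 and 29.0 FPKM to 32.7, 35.4 and 35.1, a log2 fold change of 0.31 ± 0.05 (adjusted p = 0.019).

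Some of these genes share sequence with others, which makes their values uncertain. Of the 100-base stretches in the transcripts of Idi1, 15.8% also occur in the processed pseudogene Gm13502. That pseudogene had 18.6, 21.1 and 22.9 FPKM in Control, 2.49, 2.66 and 2.34 in Model and 4.47, 4.89 and 4.29 in M+AnxA5. Its log2 fold changes were -2.64 in Model against Control and 0.67 with AnxA5, each called, and fragments of Idi1 and of this pseudogene cannot be told apart in these values. Fdft1 shares 16.0% with Ctsb, which lies on the opposite strand and had up to 1998 FPKM. Ctsb had log2 fold changes of -0.63 in Model against Control and 0.19 with AnxA5. The library protocol marks strand, but whether strand was used in counting is not given in the sources used here. Acat2 shares 28.9% with Acat3, Fdps 20.5% with Gm43738 and Acaca 23.6% with the pseudogene Gm5182, which reached at most 0.133, 0.276 and 1.02 FPKM. Tm7sf2 shares 7.92% with Vps51 on the same strand, which had up to 8.58 FPKM. Tm7sf2 itself had at most 0.629 FPKM in Model and 0.466 in M+AnxA5, and the part of Vps51 in these values was not tested.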

How the data were processed

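RNA-seq was analysed in 3 groups (Control, Model and M+AnxA5) of 3 libraries, which were assigned from the sample labels. The authors deposited FPKM per gene and library. Per the study's methods these were computed by a sequencing company. The protocol in the labels describes selection of poly(A) RNA and strand marking with dUTP, and the submitters' notes name cutadapt 1.9, STAR, StringTie 2.1.6, DESeq2, edgeR and mm10 with no role or order. Raw fragments could not be rebuilt from the FPKM, since only 32.6% to 35.4% of low values per library were within 3% of a multiple of the smallest step. Depth was estimated from this step, which was sought only in a set range of values that bounds the estimate.

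Genes that reached 1 FPKM in 3 or more of the 9 libraries entered limma (version 3.58.1, R 4.3.3) on log2(FPKM + 1), in 1 fit of all 9 libraries with a mean-variance trend and Benjamini-Hochberg adjustment over the 11657 genes tested. Errors are SE of log2 fold changes. DEGs exceeded a fold change of 1.2 with an adjusted p below 0.05. Confidence intervals cover the spread between libraries.

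The 34 genes and the other lists were chosen with earlier results of these data known. Values per library were given for each of the 34 genes called with AnxA5 and for the 2 lowest and 2 highest log2 fold changes of Model against Control in each of the 3 groups of genes, and for other genes where a sentence turned on them, which were picked after their values were seen. Of 42 further pathway genes, values were given for Npc1 and Soat1, which were called with AnxA5, and for Ch25h, picked after its values were seen. Some genes of this list are not reported here by name.

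Coordinates came from GENCODE release M21 of GRCm38, where 55154 of 55335 gene IDs were found, and promoter windows from RefSeq. Shared sequence was counted over all 100-base stretches of the annotated transcripts. Alternatives were 2 other pseudocounts, other filters, 3 scalings, no trend, a fit of only the 6 libraries compared, the replicate number as a block, other thresholds on the fold change, leaving out each library, and leaving out the 3 libraries numbered 2.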

Additional observations from a re-analysis of the deposited data

How the results depend on the processing

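The counts for Model against Control and M+AnxA5 against Control stayed within 1.5 times the reported count under all alternatives but the filter at a mean of 5 FPKM, which tests fewer genes. With it, 20 of the 34 genes were called in Model against Control (4 fatty acid genes) and 21 in M+AnxA5 against Control (5 fatty acid genes). Leaving out 1 library at a time gave 32 to 33 called genes in Model against Control, with 18 sterol genes, 5 to 6 SREBP control genes and 9 to 10 fatty acid genes. In M+AnxA5 against Control it gave 33 to 34, with 18, 5 to 6 and 10. For M+AnxA5 against Model, 8 genes were called in all, each a sterol gene. This count was 5 with no filter on low values, 2 at a fold change over 1.5, 0 without the 3 libraries numbered 2 and 9 with 6 libraries in the fit, where Hsd17b7 lost its call (adjusted p = 0.061), Fdft1 gained one and Insig1 made the count of SREBP control genes 1. Leaving out 1 library at a time gave 4 to 9 sterol genes and 4 to 9 genes in all, 0 to 1 SREBP control genes and 0 fatty acid genes. Between settings, DEGs over all genes tested numbered 322 as reported, 167 with no filter, 185 with the replicate block and 11 without the libraries numbered 2. The cause of these losses was not tested. Without the libraries numbered 2, a smaller number of libraries and the absence of these particular libraries cannot be told apart.

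With a replicate block, 5 genes were called in M+AnxA5 against Model, all sterol genes (Mvd, Idi1, Fdps, Cyp51 and Msmo1), and it changed no other call among the 34 genes. Libraries of the same number deviated together only weakly, with correlations of 0.0611 to 0.123 in that comparison (1 of 3 over 0.1), 0.0397 to 0.206 in Model against Control and 0.0156 to 0.0738 in M+AnxA5 against Control. The numbers were therefore not taken as pairs. Of the 6 libraries of each comparison, 6, 5 and 4, in the same order, correlated best with their own number.

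Signs turned only in genes that were not called. Insig2 turned with quantile normalization to 0.14 in Model against Control and 0.15 in M+AnxA5 against Control. With AnxA5 against Model, Insig2 turned to -0.0054 with TPM scaling and -0.0015 with upper-quartile scaling. Without the 3 libraries numbered 2 the log2 fold change with AnxA5 turned to -0.0261 in Srebf1, 0.0092 in Srebf2, -0.0272 in Insig2, 0.0218 in Scap, 0.0848 in Scd1 and 0.0126 in Fads1. Leaving out 1 library at a time, the log2 fold change with AnxA5 ranged from -0.0517 to 0.0483 in Nsdhl, -0.0325 to 0.0769 in Srebf1, -0.0681 to 0.0824 in Srebf2, -0.0482 to 0.0556 in Insig2, -0.0559 to 0.0257 in Scap, -0.0384 to 0.0249 in Acaca, -0.14 to 0.0296 in Scd1, -0.0350 to 0.0215 in Acly and -0.0404 to 0.15 in Aacs.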
